A study of Mus musculus with 8 samples.

Results

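Fgf5, Otx2, Pou3f1, T, Eomes, Sox17, Gata4, Gata6, Foxa2 and Cdx2 mark the formative state or early lineages of the embryo. Mouse embryonic stem (mES) cells enter the formative state when they leave naive pluripotency. These 10 genes were taken by their symbol from the 54146 genes of the deposited single-cell count tables. The cells were E14 wild-type mES cells, labelled as derived from the inner cell mass. Both cultures grew on gelatin-coated plates with mouse embryonic fibroblast (MEF) feeder cells in LIF/2i medium for 2 days. One was untreated (control) and the other was treated with CX-5461, an inhibitor of RNA polymerase I and thus of rRNA synthesis, whose dose and time the labels of these samples do not give. The labels list 4 samples for each condition, but all barcodes of a condition lie in 1 table without a sample of origin and the study states 1 biological replicate, so a condition is 1 library here and the conditions could not be tested against each other. The comparison asks how the level of these genes, the share of cells that held them and their co-detection with Pou5f1 differed between the CX-5461 and the control library.

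The 2i medium holds a MEK inhibitor and a GSK3 inhibitor, and together with LIF it keeps mES cells in the naive state. On exit, cells first pass through a formative stage that resembles the early post-implantation epiblast and then enter a germ layer. Fgf5, a fibroblast growth factor, and the transcription factors Otx2 and Pou3f1 mark the formative epiblast. The T-box factors T (brachyury) and Eomes act in the primitive streak. Sox17, Gata4, Gata6 and Foxa2 act in endoderm, of which the primitive endoderm of the blastocyst uses Gata6, Sox17 and Gata4. Cdx2 is required for the trophectoderm, and it is used again in the streak and hindgut. Pou5f1 (Oct4) is the pluripotency factor that cells lose as they settle into most of these lineages.

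Libraries were made with the 10x 3' V2 chemistry, and values are unique molecular identifiers (UMIs), each marking 1 captured RNA molecule. The control table held 3838 barcodes with 49610287 UMIs and that of CX-5461 4922 barcodes with 69841836 UMIs. After filters, 3546 control and 4531 CX-5461 cells were counted as non-feeder cells, and 216 and 162 cells formed a cluster led by fibroblast genes, called feeder-like. All 10 ES markers checked, among them Nanog, Sox2 and Zfp42, were detected in the non-feeder cells of both libraries, at a summed level of 7650 CPM in control and 8078 CPM in CX-5461 (counts scaled to the summed UMIs of the same cells). The 15 fibroblast markers summed to 8.35 and 23.3 CPM there, against 3110 and 5975 in feeder-like cells, and none of them was at 0 in any of these 4 groups. A further 9 cells of an unnamed cluster rich in fibroblast markers were left out. Levels are given as CPM over all UMIs of the non-feeder cells (full depth). Shares of cells are given at equal depth unless stated otherwise, after each cell with at least 3100 UMIs was thinned at random to 3100. Thinning kept 4510 of the 4531 CX-5461 cells but 2733 of the 3546 control cells, since 813 control cells were shallower. The cells that entered it had a median of 14879 UMIs in control and 14111 in CX-5461 before thinning. All intervals are exact, at 95%, and cover counting error only, not the spread between cultures.

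The upstream sequences of T and Eomes are shown because these related streak genes differed in opposite directions between the libraries. Each is the run of 250 bases that ends just before the RefSeq start of the gene, read 5′ to 3′ on the plus strand of GRCm38.p6, with any CTTTGA, the core bound by TCF/LEF factors, in capitals on either strand. T lies at chr17:8434423-8442496 in the GENCODE annotation and Eomes at chr9:118478212-118486132.
T, chr17:8434173-8434422: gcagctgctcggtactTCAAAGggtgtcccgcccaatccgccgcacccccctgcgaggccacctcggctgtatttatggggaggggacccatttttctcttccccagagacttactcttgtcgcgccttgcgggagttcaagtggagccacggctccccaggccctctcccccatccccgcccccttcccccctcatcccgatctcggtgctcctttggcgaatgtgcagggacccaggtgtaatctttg
Eomes, chr9:118477939-118478188: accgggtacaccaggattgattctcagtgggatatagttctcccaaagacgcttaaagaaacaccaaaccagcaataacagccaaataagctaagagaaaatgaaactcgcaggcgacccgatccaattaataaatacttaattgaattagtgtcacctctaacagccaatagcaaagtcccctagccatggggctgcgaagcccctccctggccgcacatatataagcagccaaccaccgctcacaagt
The window of T held 1 such match, which lies 234 bases before the start and reads TCAAAG on the strand shown, and the window of Eomes held none. Over 32851 RefSeq promoters, 13.8% held the core in the same 250 bases. The letters of a GC box (GGGCGG) and a TATA box (TATAAA) were searched too. T held the GC box 222 and 73 bases before the start and Eomes did not, beside 32.7% of promoters. Neither window held the letters TATAAA, and other forms of the TATA box were not searched. The run tatataag near the end of the Eomes window was therefore not covered. GC content was 62.8% for T and 46.4% for Eomes. A match is only a run of letters, and binding was not measured here.

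The formative genes were rare in both libraries and did not differ beyond counting error. Fgf5 was held by 9 control cells with 9 UMIs and by 11 CX-5461 cells with 11, or 0.20 and 0.17 CPM, a ratio of CX-5461 over control of 0.847 (0.319 to 2.31). The 9 left-out cells held 4 further Fgf5 UMIs in control and 8 in CX-5461, so that this small fibroblast-rich cluster carried more Fgf5 per cell than any ES cluster. Otx2 had 53 UMIs in control and 99 in CX-5461, or 1.18 and 1.53 CPM, with a ratio of 1.29 (0.918 to 1.84). Pou3f1 had 25 and 35 UMIs, 0.557 and 0.540 CPM, and a ratio of 0.970 (0.564 to 1.69). At equal depth an Otx2 UMI was seen in 8 of 2733 control cells (0.293%) and in 23 of 4510 CX-5461 cells (0.510%), and the intervals of these shares overlapped. No feeder-like cell had an Otx2 or Pou3f1 UMI at full depth. A difference in the formative genes was not detectable at this depth, and ratios up to 1.84 for Otx2 and 2.31 for Fgf5 lie inside the intervals.

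The streak genes went apart. In control, 113 cells held 127 UMIs of T, and in CX-5461, 356 cells held 398. Its level was 2.83 CPM (2.36 to 3.36) in control and 6.14 (5.55 to 6.78) in CX-5461, and the intervals did not overlap. The ratio was 2.17 (1.77 to 2.67). Eomes, by contrast, had 160 UMIs in control and 143 in the larger CX-5461 library, 3.56 (3.03 to 4.16) and 2.21 (1.86 to 2.60) CPM. Its level was 1.61-fold lower in CX-5461 (1.28 to 2.04). The median log2 ratio of all 17976 genes with at least 20 UMIs was 0.46. Relative to that median, the log2 ratio of T was 0.66 and that of Eomes -1.15, so that T fell short of 2-fold and Eomes passed it.

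The T values were also compared among unthinned cells of like depth. Among cells with 10000 to 15000 UMIs, a T UMI stood in 3.65% (2.49 to 5.14) of the 849 in control and in 7.26% (6.10 to 8.56) of the 1790 in CX-5461. Among cells with 20000 UMIs or more, the shares were 6.93% of 649 (5.10 to 9.17) and 13.3% of 578 (10.7 to 16.4). T was higher in CX-5461 in each of the 4 depth ranges, although in the range of 3100 to 10000 UMIs the median was 4870 in control and 7006 in CX-5461 and the intervals overlapped. Eomes was lower in CX-5461 in 3 of them, with 10.0% (7.81 to 12.6) against 4.50% (2.96 to 6.52) in the deepest cells and overlapping intervals, 4.58% (3.15 to 6.40) and 3.70% (2.75 to 4.86), in the range of 15000 to 20000 UMIs, and the other way, 0.933% and 1.59% with overlapping intervals, in the shallowest. Thinned to 3100 UMIs, T was left in 15 control cells (0.549%, 0.308 to 0.904) and in 87 treated cells (1.93%, 1.55 to 2.37). This single draw was low for control: averaged over all possible draws, the expected shares were 0.842% and 1.81%. At full depth the feeder-like cells, which should lack T, held it in 0 of 216 cells in control (up to 1.69%). In CX-5461 they held it in 1 of 162 (0.617%, up to 3.39). The shares at full depth in non-feeder cells were 3.19% (2.63 to 3.82) and 7.86% (7.09 to 8.68).

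**Figure D1:**
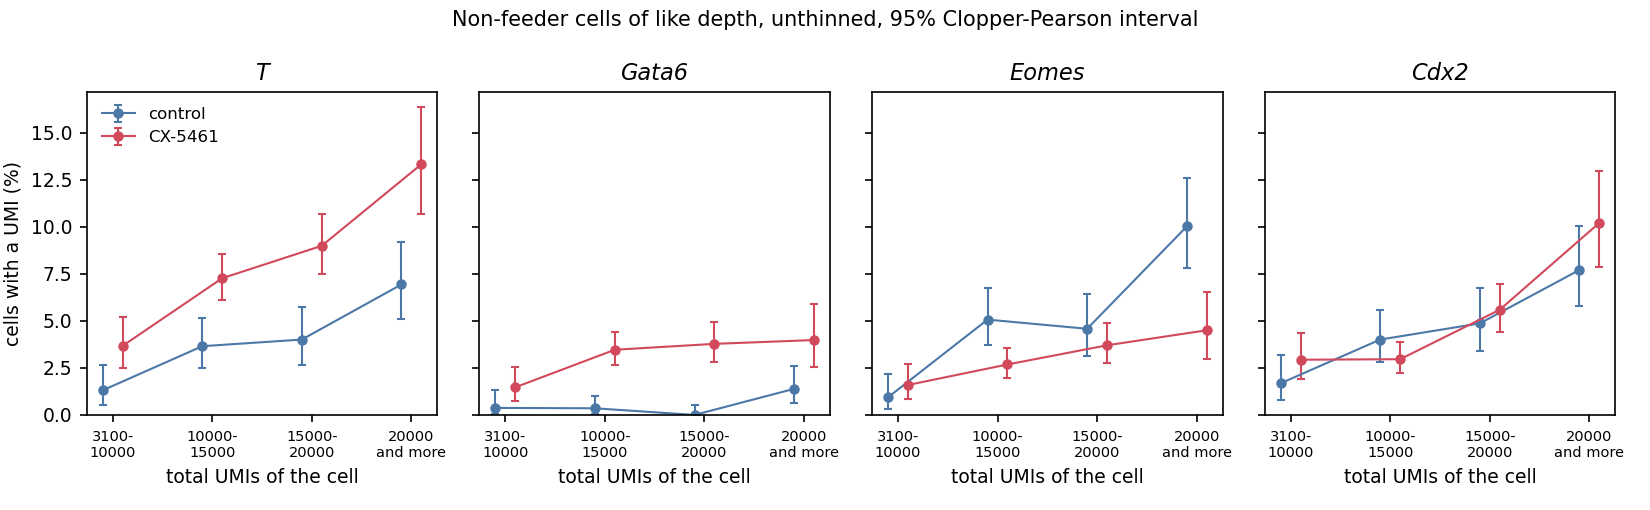
Share of non-feeder cells with at least 1 UMI of T, Gata6, Eomes or Cdx2 (y axis, percent) among cells grouped by their total UMIs (x axis), for control (blue) and CX-5461 (red), with 95% Clopper-Pearson intervals. T and Gata6 lie higher in CX-5461 in every range, Eomes lies lower in the 3 deeper ranges, and the Cdx2 intervals overlap throughout.

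Among the endoderm genes, Gata6 and Gata4 were higher in CX-5461. Gata6, a GATA factor that sets the primitive endoderm against the epiblast, had 15 UMIs over 14 cells in control and 166 UMIs over 147 cells in CX-5461. Its level was 0.334 CPM (0.187 to 0.551) in control and 2.56 (2.19 to 2.98) in CX-5461, a ratio of 7.67 (4.52 to 14.0). Gata4, its relative, was close to the limit of detection, with 2 UMIs in control and 21 in CX-5461, each in a cell of its own, and a ratio of 7.28 (1.78 to 64.0). Sox17 had 2 and 9 UMIs, a ratio of 3.12 (0.646 to 29.7), and Foxa2 had 4 and 5 UMIs, a ratio of 0.866 (0.186 to 4.37). The intervals of Sox17 and Foxa2 span no difference. At equal depth, Gata6 was seen in 6 control cells (0.220%, 0.0806 to 0.477) and in 44 treated cells (0.976%, 0.710 to 1.31), while the shares expected over all possible draws were 0.121% and 0.773%.

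Gata6 was the one member with more than 2 UMIs in feeder-like cells, and its level there was above that in the non-feeder cells. These cells held 24 Gata6 UMIs in control (5.27 CPM) and 29 in CX-5461 (7.39 CPM), while Gata4, Sox17 and Foxa2 had none. The fibroblast marker level of the non-feeder cells was itself higher in CX-5461, as given above. Among the 3206 control and 3302 CX-5461 non-feeder cells without any UMI of the 15 fibroblast markers, Gata6 had 11 and 117 UMIs and a ratio of 9.03 (4.86 to 18.6), beside 7.67 in all non-feeder cells. T gave 114 and 267 UMIs in the same cells and a ratio of 1.99 (1.59 to 2.50).

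Cdx2 did not differ beyond counting error. The 138 control UMIs lay in 128 cells and the 235 CX-5461 UMIs in 210 cells, which gives 3.07 (2.58 to 3.63) and 3.63 (3.18 to 4.12) CPM. The ratio was 1.18 (0.953 to 1.47). At equal depth 0.988% of control cells and 1.20% of CX-5461 cells had a Cdx2 UMI, and no feeder-like cell did. Both intervals of the share overlapped, 0.652 to 1.43 and 0.901 to 1.56.

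**Figure D2:**
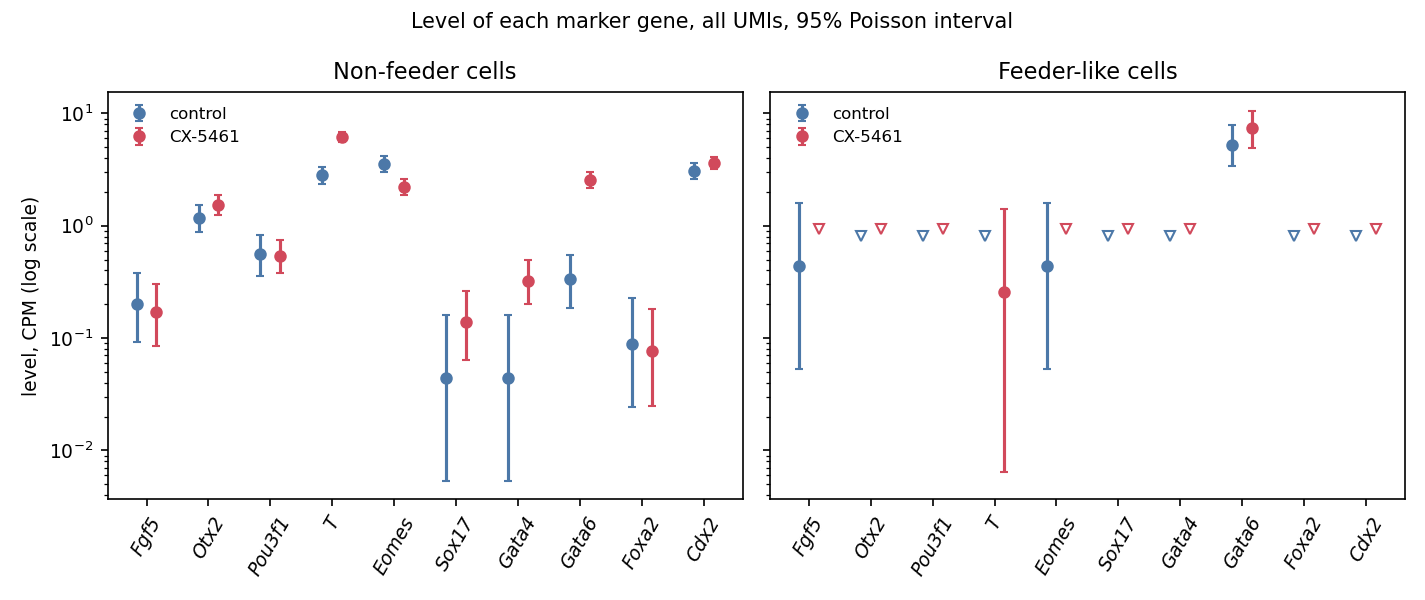
Level of each of the 10 genes in CPM (y axis, log scale) in control (blue) and CX-5461 (red), with 95% Poisson intervals, in non-feeder cells (left) and feeder-like cells (right). Open triangles are the upper end of the interval where no UMI was seen. In non-feeder cells the intervals stand clear of each other for T, Gata6, Gata4 and Eomes, and Gata6 is the only one of the 10 with more than 2 UMIs in feeder-like cells.

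Counted together, 8 of the 10 members reached 20 UMIs over both libraries at full depth, and 3 of the 8 (T, Gata4 and Gata6) were at least 2-fold higher in CX-5461. Over all 17976 genes that reached 20 UMIs, 28.6% were at least 2-fold higher, so the members' count is close to the background. None of the 8 was at least 2-fold lower, against 5.01% of all genes. At equal depth, 5 members reached 20 UMIs and 2 of them (T and Gata6) were at least 2-fold higher, beside 24.8% of 13881 genes, and none was at least 2-fold lower, beside 4.52%. The median log2 ratio of the 8 members was 0.31 at full depth, below the 0.46 of all genes, and that of the 5 members at equal depth was 0.80, beside the 0.39 of all genes. That member median was the Otx2 value of a single draw, and averaged over all possible draws it was 0.30, beside 0.39 for 13770 genes.

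The genes that share a locus with a member had few UMIs. Otx2 overlaps the antisense transcript Otx2os1, which had 1 UMI in control and 12 in CX-5461. Gata6 overlaps 1010001N08Rik on the other strand, with 0 and 11 UMIs. Whether the counting used strand is not given in the sources used here, and without it such reads cannot be told apart, so the Otx2 and Gata6 values carry this uncertainty. None of the 10 members had a UMI that the deposited tables mark as shared with other genes.

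At equal depth the Pou5f1 share of cells with a member's UMI overlapped that of all cells of their library. Of all control non-feeder cells, 92.3% (91.2 to 93.3) had a Pou5f1 UMI, while in CX-5461 the share was 84.1% (83.0 to 85.2), and the level of Pou5f1 at full depth was 920.4 and 741.9 CPM, a ratio of 0.806 (0.795 to 0.817). Among the 87 control cells with a UMI of any member, 93.1% (85.6 to 97.4) had a Pou5f1 UMI, and among the 252 such CX-5461 cells, 83.3% (78.1 to 87.7) did. Cells without any member's UMI gave 92.3% and 84.1%. For T, the counts were 15 of 15 control cells and 73 of 87 CX-5461 cells (83.9%, 74.5 to 90.9). For Gata6 they were 4 of 6 and 36 of 44 (81.8%, 67.3 to 91.8), for Eomes 25 of 26 and 27 of 29, and for Cdx2 25 of 27 and 46 of 54. In feeder-like cells the share with a Pou5f1 UMI at the same depth was lower, 13.6% in control and 4.32% in CX-5461. These cells were deeper before thinning, with a median of 20618 and 23608 UMIs. The source of their Pou5f1 UMIs was not tested. At full depth 444 of 450 control cells and 915 of 922 CX-5461 cells with a member's UMI had Pou5f1, or 98.7% (97.1 to 99.5) and 99.2% (98.4 to 99.7), which leaves 6 and 7 cells with a member and no Pou5f1 UMI. All non-feeder cells, the shallow ones included, stood at 88.9% (87.8 to 89.9) and 98.2% (97.7 to 98.5) without thinning, so that at full depth the control intervals did not overlap, and the part of depth in this was not tested.

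**Figure D3:**
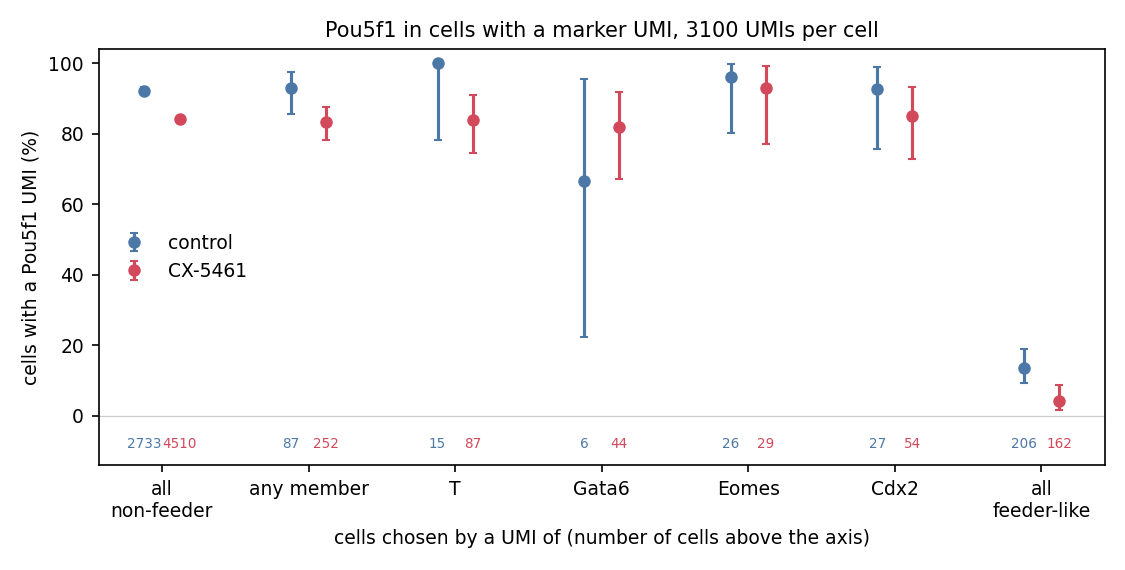
Share of cells with a Pou5f1 UMI (y axis, percent) at 3100 UMIs per cell among all non-feeder cells, non-feeder cells with a UMI of any member or of T, Gata6, Eomes or Cdx2, and all feeder-like cells, in control (blue) and CX-5461 (red), with 95% Clopper-Pearson intervals and cell numbers above the axis. In CX-5461 the cells with any member's UMI stand at 83.3%, beside 84.1% of all non-feeder cells and 4.32% of feeder-like cells.

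The members were spread thinly over many cells. At equal depth 3.18% of control cells and 5.59% of CX-5461 cells had a UMI of any member, and at full depth 12.7% and 20.3% did. No cell held UMIs of 4 or more members at full depth, 1 control cell and 6 CX-5461 cells held 3, and 38 and 92 held 2. No member reached more than 4 UMIs in a non-feeder cell, and 38 of the 356 CX-5461 cells with T had more than 1 T UMI. Pairs of members were seldom seen in the same cell. All pairs were counted, and no rule set beforehand chose the pairs given here. Of the 147 CX-5461 cells with Gata6, 12 had a T UMI (8.16%, 4.29 to 13.8), beside 7.85% of the cells without Gata6. Of the same 147 cells, 9 had an Eomes UMI (6.12%, 2.84 to 11.3), beside 2.90% of the others. In control, 11 of the 113 cells with T had a Cdx2 UMI (9.73%, 4.96 to 16.8), beside 3.41% of the others, while in CX-5461 the shares were 5.90% (3.69 to 8.88) and 4.53%. Cells with a member's UMI were also deeper than the rest, with a median of 17849 UMIs in control and 15474 in CX-5461 against 12658 and 14086 in all non-feeder cells, and the part of depth in these pairs was not tested. Gata6 and Gata4 stood together in 2 CX-5461 cells, and Gata6 and Sox17 in none. No cluster had a primitive endoderm marker among its 50 leading genes.

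Clusters were made without the 10 members. The higher T level in CX-5461 was shared by most of its clusters. The 2682 CX-5461 cells of the main cluster had 6.14 T CPM (5.42 to 6.93) and the 983 cells of the next had 5.90 (4.69 to 7.32). A cluster of 281 CX-5461 cells led by Slco2b1, Lhx1 and Gsg1l had 8.65 (5.84 to 12.4), and 499 CX-5461 cells high in mitochondrial UMIs had 6.05 (3.69 to 9.34). The 3 deep control clusters stood at 2.64, 3.45 and 3.36, each with an upper bound of at most 5.86. The cluster with 2C-like markers, 86 CX-5461 cells, held 2 T UMIs (1.79, 0.217 to 6.46), too few to place it. The shallow control cluster of 1168 cells held 3 T UMIs (0.874, 0.180 to 2.55). Without this cluster and the CX-5461 cluster high in mitochondrial UMIs, the ratio of T was 2.06 (1.67 to 2.54).

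Gata6 differed among the CX-5461 clusters. It stood at 2.02 CPM (1.62 to 2.50) in the main cluster and at 4.03 (3.04 to 5.23) in the second, whose leading genes include Cpa1 and Cyp17a1, and these intervals did not overlap. The cluster led by Slco2b1 and Lhx1 had 4.04 (2.21 to 6.77). The control clusters had at most 0.583. That value came from 2 UMIs in the shallow cluster, with an interval of 0.0706 to 2.10 that overlapped the main CX-5461 cluster. The 3 deep control clusters had upper bounds of at most 1.04. For Eomes, the 281 cells led by Slco2b1 and Lhx1 held no UMI, with an upper bound of 1.06 CPM, while the main CX-5461 cluster had 2.42 (1.98 to 2.93), the second had 1.94 (1.28 to 2.82) and the 3 deep control clusters had 3.70 to 4.76. Otx2 had its highest value in the main CX-5461 cluster, at 1.93 (1.54 to 2.39), beside 0.791 (0.395 to 1.42) in the second. The highest control cluster had 1.37 (0.928 to 1.94). Apart from the second CX-5461 cluster, the intervals of all non-feeder clusters overlapped that of the main cluster.

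**Figure D4:**
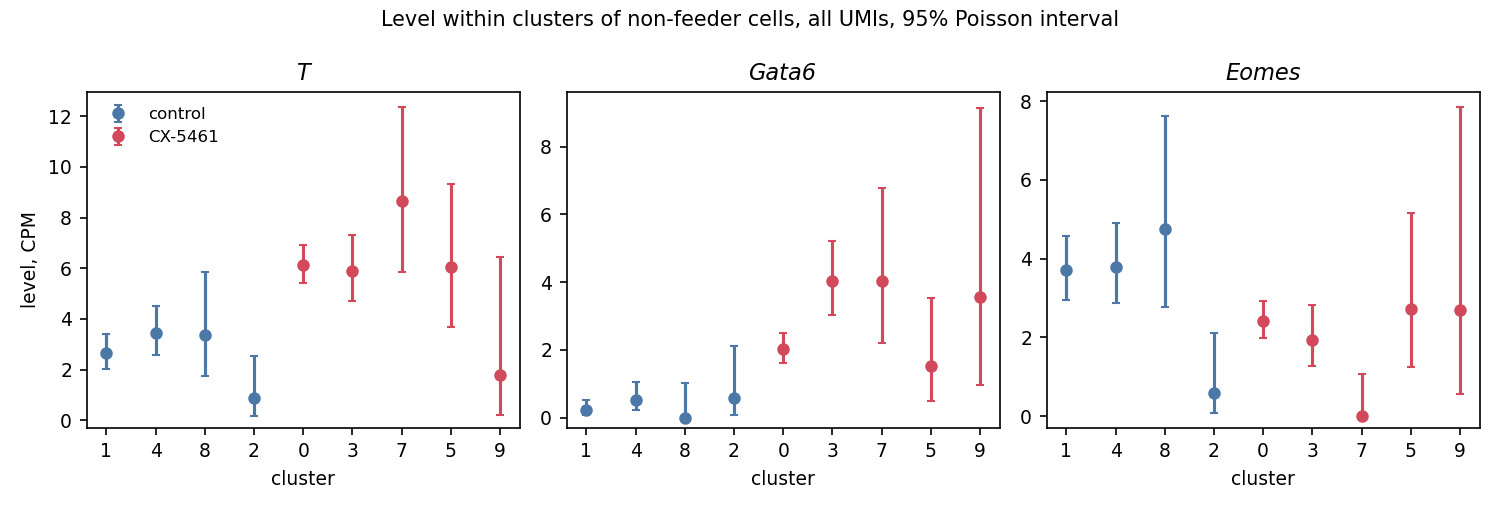
Level of T, Gata6 and Eomes in CPM (y axis) within each cluster of non-feeder cells (x axis, cluster number), for control clusters 1, 4, 8 and 2 (blue) and CX-5461 clusters 0, 3, 7, 5 and 9 (red), with 95% Poisson intervals. Cluster 2 is the shallow control cluster, 5 is high in mitochondrial UMIs, 7 is led by Slco2b1 and Lhx1, and 9 has 2C-like markers. T lies higher in 4 of the 5 CX-5461 clusters, and Eomes is at 0 in cluster 7.

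Other genes of the same lineages gave a more uneven picture than the members. Of 10 streak and mesoderm genes, 6 reached 20 UMIs at full depth, of which 3 were at least 2-fold higher in CX-5461 and 2 at least 2-fold lower, beside 28.6% and 5.01% of all genes. Wnt3, the ligand that starts the streak, had 7 UMIs in control and 601 UMIs in 500 CX-5461 cells, a ratio of 59.5 (28.7 to 149). Lhx1, a LIM homeobox factor of the anterior streak, had 2 and 111 UMIs, a ratio of 38.5 (10.4 to 322). Goosecoid (Gsc) gave 1.21 (0.865 to 1.70). The streak homeobox gene Mixl1 was 2.49-fold lower (1.44 to 4.42), with 38 UMIs in control and 22 in CX-5461. Mixl1 was singled out after its value was seen.

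Of 16 other endoderm genes, 12 reached 20 UMIs, of which 9 were at least 2-fold higher in CX-5461 and none at least 2-fold lower, beside 28.6% and 5.01% of all genes. Their median log2 ratio was 1.45, against 0.46 for all genes. Cubn, a receptor for protein uptake in visceral endoderm, had 6 UMIs in control and 234 in CX-5461, a ratio of 27.0 (12.2 to 74.4). Pdgfra, a growth factor receptor of primitive endoderm that fibroblasts also express, had 5 and 52 UMIs, or 0.111 and 0.803 CPM, and stood at 3.30 and 4.08 CPM in feeder-like cells. The basement membrane gene Col4a2 gave 2.71 (1.81 to 4.15), but feeder-like cells held it at 63.3 and 119 CPM, beside 0.690 and 1.87 in the non-feeder cells. The part of this background in the ratios of Pdgfra and Col4a2, and in the count and median of the 12 genes, was not tested. Hhex, a homeobox gene of anterior endoderm, gave 1.80 (1.60 to 2.02). The laminin gene Lama1 gave 1.28 (1.07 to 1.52), beside a median ratio of all genes of 1.38. Dab2, also among the 12, had 18 and 21 UMIs and a ratio of 0.809 (0.410 to 1.61). Sox7, which did not reach 20 UMIs, had 8 in control and 2 in CX-5461.

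The 11 other formative genes all reached 20 UMIs, of which 5 were at least 2-fold higher and 1 at least 2-fold lower in CX-5461, beside 28.6% and 5.01% of all genes. The lower one was Zic2, a zinc-finger factor, with 32 UMIs in control and 9 in CX-5461, 5.13-fold lower (2.39 to 12.2), and it was singled out after its value was seen. Grhl2, a factor that opens epithelial enhancers in the formative state, had 9 and 60 UMIs, a ratio of 4.62 (2.28 to 10.6). The de novo DNA methyltransferase gene Dnmt3b had 795 and 1214 UMIs and a ratio of 1.06 (0.967 to 1.16). The kinase gene Pim2 gave 0.921 (0.780 to 1.09). Neither level differed beyond counting error, but both intervals lay below the median ratio of all genes, 1.38. Nestin (Nes) gave 1.61 (1.26 to 2.07), with 14.7 and 7.90 CPM in feeder-like cells.

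Of the 9 trophectoderm genes other than Cdx2, 8 reached 20 UMIs, of which 2 were at least 2-fold higher and 1 at least 2-fold lower, beside 28.6% and 5.01% of all genes. The keratins of simple epithelia went apart: Krt7 had 17 UMIs in control and 11342 UMIs in 3070 CX-5461 cells, a ratio of 462 (289 to 794), while Krt8 was 5.54-fold lower (4.50 to 6.88), with 434 and 113 UMIs. Tead4, which acts upstream of Cdx2 in the embryo, was 1.69-fold lower (1.46 to 1.96), and Gata3, which acts beside Cdx2, gave a ratio of 1.86 (1.16 to 3.07). Of 5 neuroectoderm genes, 3 reached 20 UMIs. Pax6 was 1.68-fold lower (1.15 to 2.45), and Tubb3, a tubulin of neurons, gave a ratio of 2.04 (1.91 to 2.19), with 138 and 89.9 CPM in feeder-like cells.

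**Figure D5:**
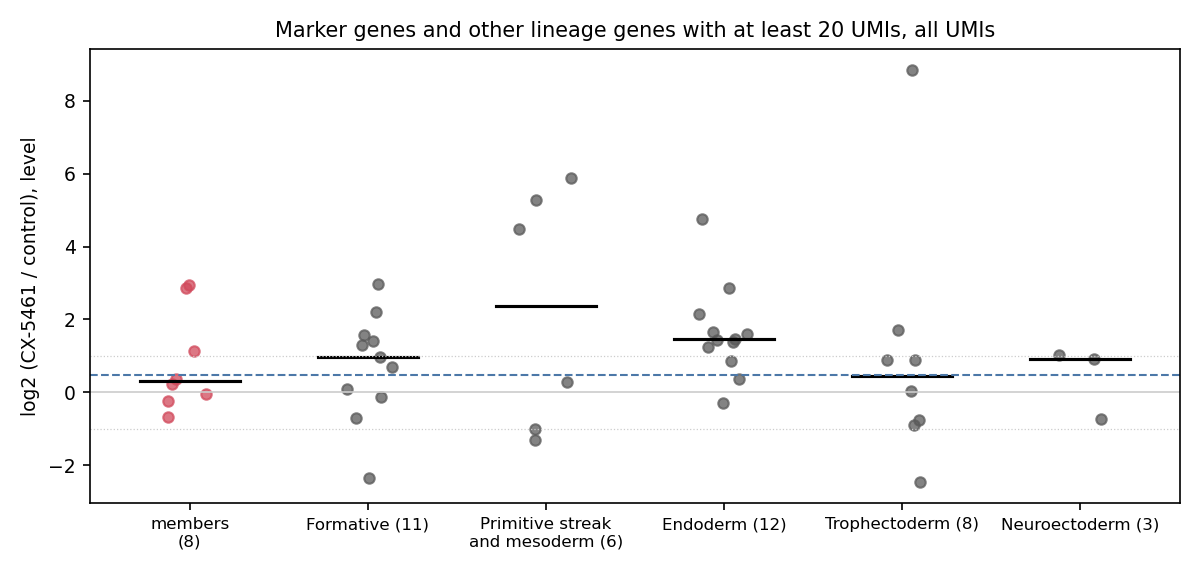
Log2 ratio of the level in CX-5461 over control at full depth (y axis) for the 8 members and for the other lineage genes with at least 20 UMIs, 1 point a gene, with the number of genes in brackets. Black bars are medians, the dashed blue line is the median of all genes at 0.46, and dotted lines mark 2-fold. The 12 endoderm genes have a median of 1.45, and Krt7 stands above the rest.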

How the data were processed

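For each condition the deposited table holds UMI counts by gene and barcode as the authors counted them, not normalized, with a total and a column of ambiguous counts per gene. Per the methods they came from a published droplet pipeline, followed by Seurat 2.3.4 (submitters' processing notes) on mm10. The methods name Bowtie as the aligner of that pipeline, replaced by HISAT2 for repeats. Whether strand was used is not given in the sources used here. Identifiers matched GENCODE vM21 in 54079 of 54146 cases without their version. Cells below 500 UMIs or above a mitochondrial share of 0.2 were dropped, as in the methods, and the rest were clustered with scanpy 1.11.5 (2000 variable genes without the members, 16 components, 15 neighbours, Leiden resolution 0.5). A cluster with at least 3 feeder markers among its 50 leading genes was feeder-like, and an unnamed cluster above 1000 CPM of these markers was left out. A member was counted from 20 UMIs over both libraries, called at 2-fold. Alternatives were other depths, minimums and cell filters, the mean over all thinnings, centring, and the TMM factor of edgeR 4.0.16. Intervals were Poisson for levels, conditional binomial for ratios and Clopper-Pearson for shares. Simulated data were used to check the ratios, their intervals and the thinning. No p-value was computed and no columns of samples were left unused. Doublets were not called. Barcodes are serial numbers, so shared barcodes could not be counted.

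The members and gene lists were chosen with earlier results of these data known. Mixl1, Zic2, Pdgfra, Dab2 and Sox7 were named with their values known. The other named genes of the lists are the 2 highest and 2 lowest ratios of each list among genes with at least 20 UMIs after thinning. By the same rule genes most like a member were to be named where at least 50 thinned cells of each library held it, and no member qualified. RefSeq promoters were matched for 6 of 10 members. The full-depth counts with their alternatives, the depth ranges and the settings with or without named clusters were chosen after seeing the data.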

Additional observations from a re-analysis of the deposited data

How the results depend on the processing

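No paired analysis was possible because the barcodes carry no replicate number and each condition is 1 library, and for the same reason no replicate could be left out. Depth set the shares. The share of cells with any member's UMI, 3.18% in control and 5.59% in CX-5461 at 3100 UMIs, was 1.65% and 2.43% at 1500, 7.07% and 9.74% at 6000, and 12.7% and 20.3% without thinning. Among those cells Pou5f1 was found in 69.6% and 63.6% at 1500, in 99.4% and 95.9% at 6000, and in 98.7% and 99.2% without thinning. The count of members at least 2-fold higher at equal depth, 2 of 5, was 0 of the 3 that could be counted at 1500 UMIs. Without a minimum of UMIs it was 5 of 10, with 1 member at least 2-fold lower. The log2 ratio of Otx2, 0.80 at 3100 UMIs, was -0.19 at 1500. At full depth, TMM scaling (log2 shift -0.40) and centring on the median of all genes each gave 2 members at least 2-fold higher and 1 lower, Eomes, with T below 2-fold at a log2 ratio of 0.72 and 0.66. Cdx2 then moved from a log2 ratio of 0.24 to -0.16 and -0.22, and Otx2 from 0.37 to -0.029 and -0.091. Gata4 dropped under 20 UMIs when the clusters or cells high in mitochondrial UMIs were left out. No called value changed sign, and the log2 ratio of Gata6 at full depth lay between 2.48 and 3.11 in 8 alternatives. Counting error limits Fgf5, Sox17, Gata4 and Foxa2, and the spread between cultures was not measured.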
